A study of Mus musculus with 12 samples.

Results

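The genes of fatty acid oxidation and fatty acid synthesis were followed across 3 cell types of the adult mouse dentate gyrus, the hippocampal region in which new neurons are made throughout life. A list of 37 genes was read from a table of 50600 genes, and all 37 were found there by symbol. By role, 21 serve oxidation, 9 serve synthesis, 5 activate or bind fatty acids and 2 are regulators. Limiting-cell RNA-seq (lcRNA-seq), in which cDNA is amplified directly from a few sorted cells, had been run on 12 libraries of 50 cells each, 4 libraries per cell type. All cells came from Nestin-GFP mice of 6 to 9 weeks, in which elements of the Nestin gene drive green fluorescent protein (GFP). Live cells that lacked CD31, CD45, O1 and O4 at the surface were sorted as stem cells (GFP and the glutamate transporter GLAST both present), progenitors (GFP without GLAST) or astrocytes (GLAST without GFP). No group received a treatment. By the study's description the libraries of a cell type were biological replicates, each obtainable from a single mouse brain. The labels do not tie libraries to animals, so whether libraries of different cell types share an animal was not known here, and p-values measure the spread between these libraries. The columns of astrocytes and progenitors carry no replicate number, and these libraries are called a to d as names only.

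Fatty acids enter metabolism as acyl-CoA thioesters made by acyl-CoA synthetases. For oxidation, carnitine palmitoyltransferases and a carnitine carrier move the acyl group into mitochondria, where repeated rounds of dehydrogenation, hydration, a second dehydrogenation and thiolysis shorten the chain, and electrons leave through the electron transfer flavoprotein. Synthesis runs in the cytosol from malonyl-CoA, and desaturases and elongases then shape the product. In the brain, fatty acid oxidation is known mostly from astrocytes, and both oxidation and new synthesis of fatty acids are known to bear on the quiescence and division of adult neural stem cells.

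Total counts were between 5357232 and 6253680 in astrocytes, between 9041498 and 12535028 in progenitors and between 5031166 and 10435711 in stem cells. Genes with at least 10 counts numbered 9430 to 11655 in astrocyte, 16389 to 17015 in progenitor and 13368 to 14175 in stem cell libraries. Of the 37 members, 30 to 35 reached 10 counts in an astrocyte library, against 36 or 37 in the others. The study described the cDNA quality of its astrocytes as suboptimal. Levels are given as CPM, counts per 1000000 of a library size scaled by edgeR's TMM method over all 12 libraries, with SD over n = 4 libraries. The 8 astrocyte markers were present in every library, and summed to 17285 to 23336 CPM in astrocytes, 8329 to 10994 CPM in progenitors and 26109 to 35341 CPM in stem cells. Nes, the gene whose elements drive the GFP, was at 0 in all astrocyte libraries and at 0 to 0.521 CPM in stem cells, so the stem cell label is not borne out by that marker. The stem cell marker Hopx was at 493 to 598 CPM there, against 153 to 411 CPM in astrocytes and 146 to 287 CPM in progenitors. Of the same list, Sox9 and Thrsp also had their highest means in stem cells. Id4 and Sox2 overlapped with astrocytes, Riiad1 overlapped with progenitors, and Vnn1 reached at most 1.11 CPM. Progenitor libraries held the neuroblast gene Dcx (172 to 300 CPM), all 5 markers of oligodendrocyte precursors (1732 to 2715 CPM summed) and the immediate-early gene Fos (1436 to 2858 CPM). The astrocyte libraries varied in neuron markers, which summed to 657 to 5373 CPM, with Camk2a between 460 and 4052 CPM and highest in astrocyte a. Of the same list, Snap25, Syt1, Slc17a7 and Gad2 also had higher means in astrocytes than in progenitors, and Prox1, Gad1 and Rbfox3 had lower means. Oligodendrocyte markers varied in astrocytes too, at 337 to 3205 CPM summed. Defining markers of ependyma were at 0 in all astrocyte and stem cell libraries. In such pools of sorted cells, fewer cells of a type and less RNA per cell cannot be told apart.

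**Figure D1:**
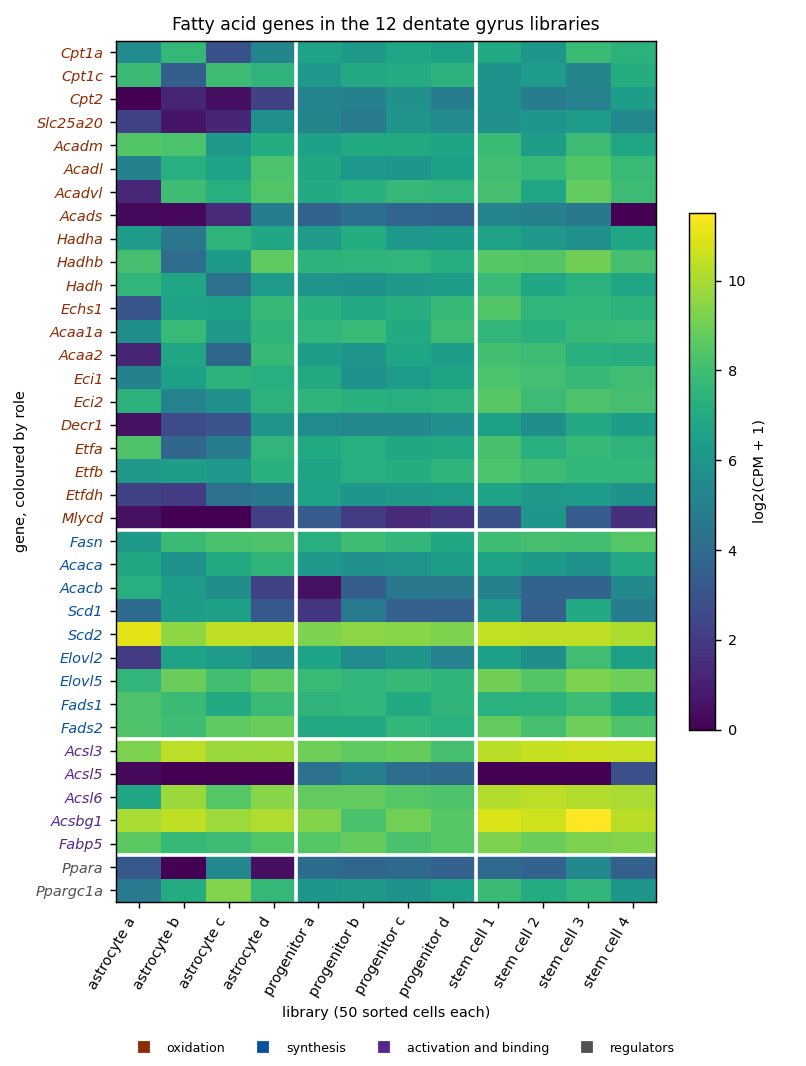
Level of each of the 37 genes (rows, names coloured by role) in each of the 12 libraries (columns), as log2(CPM + 1). Ranges over 10-fold between libraries of a cell type occur for 18 genes in astrocytes, 2 in progenitors and 4 in stem cells, and several oxidation genes of astrocytes, such as Acadvl (1.49 to 334 CPM) and Acaa2 (1.28 to 210 CPM), are among them.

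Per length of exons, Acsbg1 was the first of the 37 genes in every cell type, with a mean level of 306 CPM per kilobase in astrocytes, 129 in progenitors and 531 in stem cells. The length used was the union of the exons of all annotated transcripts of a gene (3567 bases for Fabp5). It can exceed the length of the mRNA present, so these ranks depend on the annotation. Acsbg1 encodes the bubblegum acyl-CoA synthetase, which is known from astroglia. In astrocytes it was followed by Scd2 at 255 and Acsl3 at 209 CPM per kilobase, and in stem cells by Acsl3 at 334 and Scd2 at 237. At the low end, Acsl5 stood at 0.0109 CPM per kilobase in astrocytes and 0.305 in stem cells, and Mlycd at 1.39 was the lowest of the list in progenitors. Summed over the 37 genes, the level was 7911 ± 948 CPM in astrocytes, 5342 ± 168 CPM in progenitors and 11659 ± 1616 CPM in stem cells. The sums of the 3 cell types did not overlap, with ranges of 7213 to 9282, 5139 to 5543 and 10298 to 13714 CPM. As a share of total counts, without TMM scaling, astrocytes (0.584% to 0.848%) overlapped with progenitors (0.616% to 0.645%), and stem cells (1.03% to 1.28%) lay above both.

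The first comparison asked how the pathway differed between progenitors and stem cells, the GFP-positive populations. Of the 37 genes, 13 passed the test (edgeR, Benjamini-Hochberg adjusted over all genes) as lower in progenitors, which is 35.1% of the list against 3.66% of all 15427 genes tested, and 0 passed as higher (4.95% of all genes). The called genes spread over the roles, with 6 of 21 oxidation genes, 3 of 9 synthesis genes, 4 of 5 activation and binding genes and 0 of 2 regulators. Of all 37, 34 had a negative log2 fold change, and the median was -0.78 against 0.04 over all genes tested. In 15 genes every progenitor library lay under every stem cell library, and in 1 gene, Acsl5, every progenitor library lay above, while 7.5% and 11.8% of all genes tested were separated in these directions.

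Among the called genes, the 3 with the most negative log2 fold changes were acyl-CoA synthetases. Acsl3, an acyl-CoA synthetase of the endoplasmic reticulum and lipid droplets (chr1:78657825-78707743, plus strand, GRCm38), was at 492, 398, 443 and 273 CPM in progenitors a to d and at 1277, 1460, 1593 and 1501 CPM in stem cells 1 to 4. The lowest stem cell library was therefore well above the highest progenitor library. Its log2 fold change was -1.90 ± 0.20 (SE, adjusted p = 0.00072), with 5.6% of its exonic bases shared with Utp14b.

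Acsl6, the synthetase known for brain docosahexaenoic acid (chr11:54303798-54364756, plus strand), varied less between libraries. Its values were 426, 421, 352 and 311 CPM in progenitors and 1159, 1305, 1170 and 1046 CPM in stem cells, with a log2 fold change of -1.67 ± 0.15 (adjusted p = 0.00042). Acsbg1 (chr9:54604877-54661870, minus strand) was at 665, 292, 526 and 369 CPM in progenitors. In stem cells it was at 1844, 1626, 2904 and 1278 CPM, and the log2 fold change was -2.08 ± 0.32 (adjusted p = 0.0039). Both genes were separated without overlap, and Acsbg1 had the wider spread in each cell type.

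Fabp5, a carrier protein for fatty acids in the cytosol (chr3:10012548-10016607, plus strand), differed less. Its CPM were 357, 441, 293 and 350 in progenitors and 629, 468, 601 and 658 in stem cells, so that the nearest libraries were 441 and 468. The log2 fold change of -0.75 ± 0.18 (adjusted p = 0.029) was no longer past the threshold without progenitor a, c or d or stem cell 1, 3 or 4, with adjusted p up to 0.094. Reads of Fabp5 are uncertain, since Gm6166 and Gm14328 match its transcripts at 98.289% and 97.304% identity, with at most 104 and 12 counts in a library.

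Acsl5, a synthetase known from intestine, liver and other tissues (chr19:55251938-55297720, plus strand), lay on the other side. It was at 18.9, 30.1, 16.9 and 14.7 CPM in progenitors, whereas stem cells 1 to 3 held 0 counts and stem cell 4 held 32 counts, or 5.94 CPM. The difference did not pass the test in the 8 libraries (log2 fold change 3.73 ± 1.70, adjusted p = 0.24) and passed it without stem cell 4 (adjusted p = 0.0058). In that fit only progenitors held counts and carried the gene past the count filter. A count of 0 allows up to 3 counts, or 0.308 to 0.391 CPM in stem cells 1 to 3.

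**Figure D2:**
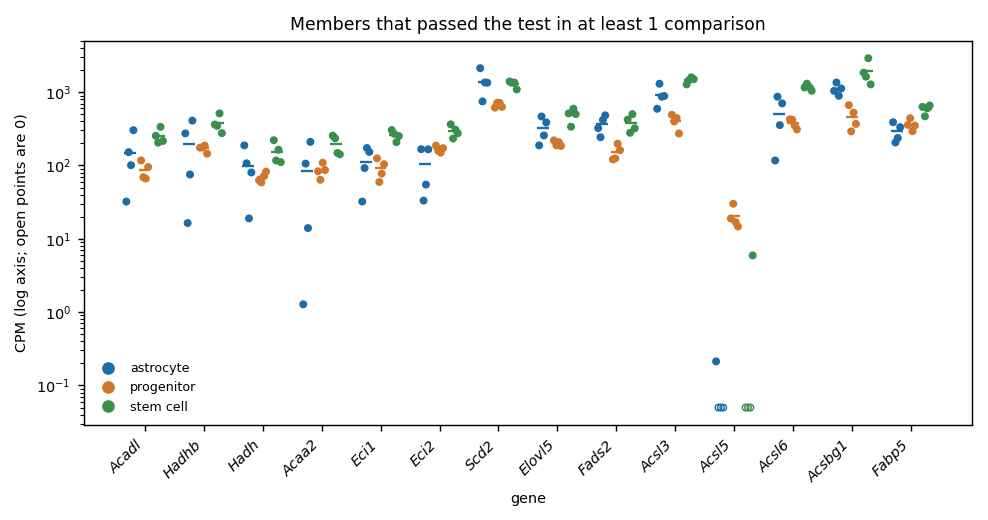
CPM (log axis) of the 14 genes that passed the test in at least 1 comparison, with 1 point per library, coloured by cell type, and a bar at the mean where no library is at 0; open points at the foot stand for 0. In 12 of the 13 genes called between progenitors and stem cells the astrocyte points spread more widely than the progenitor points, and Acsl5 is seen mainly in progenitors.

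In oxidation, the calls lay in the core and auxiliary enzymes, 4 of 10 and 2 of 3, with 0 of 4 in the carnitine shuttle, 0 of 3 in electron transfer and Mlycd not called. These steps group genes by family and kind of reaction, and not by compartment of the cell. Acadl, the long-chain acyl-CoA dehydrogenase (chr1:66830839-66863277, minus strand), was at 117, 69.2, 66.4 and 95.3 CPM in progenitors and at 254, 205, 336 and 216 CPM in stem cells. Eci1, an isomerase that moves double bonds of unsaturated chains into place (chr17:24426641-24439348, plus strand), was at 125, 59.5, 77.5 and 104 CPM against 304, 271, 208 and 252 CPM. Both were separated without overlap, with log2 fold changes of -1.57 ± 0.26 (adjusted p = 0.0053) and -1.54 ± 0.26 (adjusted p = 0.0062).

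Hadhb, the beta subunit of the mitochondrial trifunctional protein and a thiolase, was at 175, 176, 187 and 145 CPM in progenitors and 362, 347, 513 and 276 CPM in stem cells. Its log2 fold change was -1.17 ± 0.21 (adjusted p = 0.008), although reads cannot be told from those of Gm13910 and Gm9108 where these copies match at 99.79% and 97.616% identity, and Gm13910 held up to 1404 counts in a library. Hadha, the alpha subunit of the same complex, was at 79.1, 137, 70 and 76.9 CPM in progenitors and 98.6, 73.9, 53 and 110 CPM in stem cells. These libraries overlapped throughout, and the log2 fold change of Hadha was 0.07 ± 0.31 (adjusted p = 0.94), with a sign that turned in 3 of the other fits.

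The genes of the subunits lie head to head on chromosome 5, Hadha (chr5:30118304-30155162) on the minus strand and Hadhb (chr5:30155248-30184593) on the plus strand, and the GENCODE genes are 85 bases apart. The whole stretch between them is shown because it is upstream of both genes. It is given on the plus strand (chr5:30155163-30155247, RefSeq promoter table, GRCm38.p6), with matches to the GC box GGGCGG in capitals.
Hadha to Hadhb: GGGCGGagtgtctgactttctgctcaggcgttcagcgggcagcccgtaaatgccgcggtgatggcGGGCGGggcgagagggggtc
The log2 ratio of Hadha over Hadhb per kilobase was -1.36 ± 0.45 in progenitors and -2.58 ± 0.82 in stem cells. This difference of 1.22 had a two-sided exact permutation p of 0.057, and 0.6 after Benjamini-Hochberg adjustment over 21 such tests, 7 pairs of partner genes in 3 comparisons.

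The remaining called oxidation genes had weaker support. Hadh, a hydroxyacyl-CoA dehydrogenase of medium and short chains (chr3:131233419-131272101, minus strand), was at 62.8, 58.8, 71.3 and 82.6 CPM in progenitors and 221, 117, 164 and 111 CPM in stem cells (log2 fold change -1.19 ± 0.26, adjusted p = 0.02). Acaa2, a mitochondrial thiolase, was at 83.3, 63.8, 109 and 86.6 CPM against 255, 235, 148 and 142 CPM (log2 fold change -1.22 ± 0.26, adjusted p = 0.017). Eci2, another isomerase of unsaturated chains, was at 186, 158, 150 and 172 CPM against 364, 233, 308 and 275 CPM (log2 fold change -0.86 ± 0.19, adjusted p = 0.018). None of the 3 overlapped between the cell types. Adjusted p rose to at most 0.068 for Hadh without progenitor a, b or c or stem cell 1, to 0.059 for Acaa2 without progenitor a, b or d, and to 0.067 for Eci2 without progenitor b, c or d or stem cell 1. The other enzymes of the core and auxiliary steps, Acadm, Acadvl, Acads, Echs1, Acaa1a and Decr1, overlapped between the cell types, with adjusted p from 0.085 for Decr1 to 0.97 for Acaa1a. Decr1, a reductase for unsaturated chains, was called by DESeq2 and, without stem cell 2, by edgeR (adjusted p = 0.03). Mlycd, which breaks down malonyl-CoA, was at 4.13 ± 3.44 CPM in progenitors and 20.9 ± 30.3 CPM in stem cells (adjusted p = 0.26).

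Electron transfer split. The subunits Etfa and Etfb of the electron transfer flavoprotein were lower in every progenitor library without passing the test. Etfa was at 124, 150, 114 and 126 CPM against 280, 152, 210 and 179 CPM (adjusted p = 0.081). Etfb was at 105, 153, 140 and 177 CPM against 300, 242, 193 and 195 CPM (adjusted p = 0.076), and 58.2% of its exonic bases are shared with other genes, chiefly Gm45233. DESeq2 called both, and edgeR called Etfa without stem cell 2 (adjusted p = 0.044). Etfdh, the oxidoreductase that takes their electrons to ubiquinone, was at 98.7, 65.4, 70.8 and 81.6 CPM in progenitors and 100, 74.5, 79.9 and 56.6 CPM in stem cells, so the libraries overlapped and the log2 fold change was -0.01 ± 0.25.

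The carnitine shuttle, the entry step, did not differ beyond the spread of the libraries. Cpt1a, the form of the liver and of astrocytes and the rate-setting step of mitochondrial uptake, was at 99.2, 71.7, 112 and 90.6 CPM in progenitors and at 128, 66.5, 231 and 165 CPM in stem cells. The ranges overlapped, and the log2 fold change was -0.70 ± 0.35 (adjusted p = 0.29). Cpt1c, the brain form, is counted with the shuttle by family only, and a part of it in mitochondrial uptake was not tested. Its log2 fold change was positive, at 0.62 ± 0.42 (adjusted p = 0.46), and Cpt2 and Slc25a20 had adjusted p of 0.57 and 0.43.

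Among synthesis genes, the calls were a desaturase of saturated chains and enzymes of polyunsaturated chains. Scd2, the main stearoyl-CoA desaturase of brain (chr19:44293674-44306864, plus strand), was at 615, 717, 714 and 630 CPM in progenitors and 1399, 1341, 1353 and 1090 CPM in stem cells, with a log2 fold change of -0.99 ± 0.13 (adjusted p = 0.0023). Elovl5, an elongase of polyunsaturated fatty acids (chr9:77917364-77984519, plus strand), was at 220, 189, 208 and 185 CPM against 514, 338, 595 and 502 CPM, a log2 fold change of -1.32 ± 0.20 (adjusted p = 0.0036). Fads2, the delta-6 desaturase (chr19:10062765-10101746, minus strand), was at 121, 125, 198 and 162 CPM against 422, 279, 501 and 321 CPM, a log2 fold change of -1.37 ± 0.24 (adjusted p = 0.008). All 3 were separated without overlap.

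Fads1, the delta-5 desaturase that lies next to Fads2 on chromosome 19 and works in the same pathway, was at 171 ± 32.4 CPM in progenitors and 174 ± 46.7 CPM in stem cells (log2 fold change -0.06 ± 0.24, adjusted p = 0.93). The log2 ratio of Fads1 over Fads2 per kilobase was 0.03, 0.11, -1.22 and -0.36 in progenitors and -1.95, -1.22, -1.63 and -1.92 in stem cells. The groups met at -1.22. The difference of 1.32 had an exact permutation p of 0.029, which is the smallest that 4 against 4 libraries allow, and it did not pass after adjustment over the 21 tests (0.6).

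De novo synthesis itself was not called. Fasn, the fatty acid synthase, was at 151, 246, 198 and 119 CPM in progenitors and 241, 276, 261 and 353 CPM in stem cells, which overlap at 241 to 246 CPM (log2 fold change -0.71 ± 0.25, adjusted p = 0.12). Acaca and Acacb, the acetyl-CoA carboxylases that make malonyl-CoA, had adjusted p of 0.48 and 0.7. Reads of Acaca can be split with the copy Gm5182 (99.199% identity). Scd1, the desaturase prominent in liver and fat, was low and uneven, at 2.54 to 26.2 CPM in progenitors and 10.7 to 129 CPM in stem cells (log2 fold change -2.31 ± 0.84, adjusted p = 0.14), and Elovl2 overlapped as well.

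Of the regulators, Ppara, the nuclear receptor for fatty acids that drives oxidation genes in liver, was at 15.9, 12.8, 14.3 and 10.4 CPM in progenitors and 14.1, 11.2, 40.9 and 10.4 CPM in stem cells. The groups overlapped except for stem cell 3, and without that library the log2 fold change turned from -0.56 to 0.13. Ppargc1a, a coactivator of mitochondrial genes, was at 59.5 to 89.2 CPM in progenitors and 67.4 to 226 CPM in stem cells (log2 fold change -1.14 ± 0.34, adjusted p = 0.073), and passed the test without stem cell 4 (adjusted p = 0.015).

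The genes Acsl3, Acsbg1, Elovl5 and Fads2 were called between progenitors and stem cells in each of the 8 alternative fits and in each of the 8 fits that left out a library. Bases upstream of the RefSeq start that lie outside the GENCODE gene are shown for 3 of them, since they are the best supported differences of the list. The strand of the gene is printed (GRCm38.p6), with matches on either strand to the GC box GGGCGG and to the CCAAT box in capitals. They lie at chr1:78657675-78657824, chr9:54661886-54662035 (minus strand) and chr9:77917215-77917363.
Acsl3: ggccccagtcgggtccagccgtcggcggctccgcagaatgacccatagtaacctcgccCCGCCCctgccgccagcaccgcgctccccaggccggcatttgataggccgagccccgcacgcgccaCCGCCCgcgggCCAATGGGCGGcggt
Acsbg1: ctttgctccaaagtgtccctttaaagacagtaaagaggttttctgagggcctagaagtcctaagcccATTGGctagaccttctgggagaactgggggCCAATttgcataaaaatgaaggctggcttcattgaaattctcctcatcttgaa
Elovl5: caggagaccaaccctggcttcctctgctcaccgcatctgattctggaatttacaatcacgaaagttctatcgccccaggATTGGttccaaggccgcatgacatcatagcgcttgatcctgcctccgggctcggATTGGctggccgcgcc
The RefSeq table held a promoter, from 250 bases before to 50 bases after the start, for 31 of the 37 genes. Within these windows the GC box was found in 20 genes (64.5%) against 35.7% of all 32851 promoters, and the CCAAT box in 16 genes (51.6%) against 37.4%. A member was counted where any of its promoters held a match, whereas the share of all is per promoter. These shares are therefore in unlike units, and no enrichment was tested. A direct repeat of AGGTCA with 1 base of any kind between the copies, as bound by PPAR receptors, was in 0 of the 31 and in 0.0396% of all promoters. The E-box CACGTG and the cyclic AMP element TGACGTCA were each found in 1 gene, Elovl5, outside the bases shown, against 7.15% and 1.79% of all promoters. Matches of letters are a description and do not mark a binding site.

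The fold changes moved beside markers of the cell types. Between progenitors and stem cells 7 of the 8 astrocyte markers were called lower in progenitors, with a median log2 fold change of -1.59, and the 8 markers together were 3.17-fold higher in stem cells. The list includes Slc1a3, the gene of GLAST, by which these cells were sorted. Aldoc, Slc1a3 and Slc1a2, with means of 10040, 7916 and 5992 CPM, make up most of the mean sum of 30126 CPM in stem cells. Over the same libraries the summed level of oxidation genes was 2108 ± 126 CPM in progenitors and 3440 ± 554 CPM in stem cells, that of synthesis genes 1526 ± 92.6 and 2914 ± 378 CPM, and that of activation and binding genes 1623 ± 264 and 5131 ± 781 CPM. Per 100 CPM of the astrocyte markers, activation and binding genes stood at 17 ± 0.918 CPM in progenitors and 17.1 ± 1.4 CPM in stem cells, whereas oxidation genes stood at 22.5 ± 3.76 and 11.4 ± 0.762 CPM and synthesis genes at 16.2 ± 2.06 and 9.68 ± 0.162 CPM. On this scale the activation genes overlapped between the cell types, and the other roles lay higher in every progenitor library. Markers of neuronal progenitors (4 of 6 tested called), oligodendrocyte precursors (4 of 5) and stress and immediate-early genes (4 of 5 tested) were higher in progenitors. Mural markers had 1 of 4 tested called higher, and their sum was 39.4 to 2100 CPM in progenitors and 52 to 97.5 CPM in stem cells. The part of all these markers in the results was not tested.

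**Figure D3:**
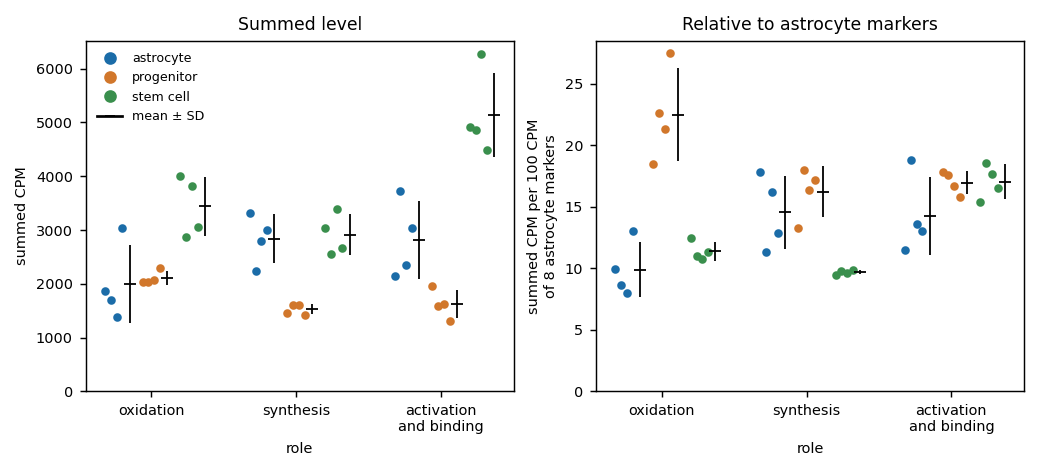
Summed CPM of the oxidation, synthesis and activation and binding genes in each library (left), and the same sums per 100 CPM of 8 astrocyte markers (right), with 1 point per library and the mean ± SD of 4 libraries beside them. On the left every stem cell library is above every progenitor library for each role, and on the right the activation and binding genes of these cell types overlap, at 15.8 to 17.8 in progenitors and 15.4 to 18.6 in stem cells.

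Limits of this comparison came from scaling and from the estimate of the spread. With total counts as the scaling, the median over all genes moved to 0.37 and 9 of the 13 genes were still called (1.94% of all genes called lower), without Hadh, Acaa2, Eci2 and Fabp5. In 1 fit over all 12 libraries, in which the 3 cell types share an estimate of the spread, 4 were called (0.844%), while DESeq2 called 18 (6.69%).

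**Figure D4:**
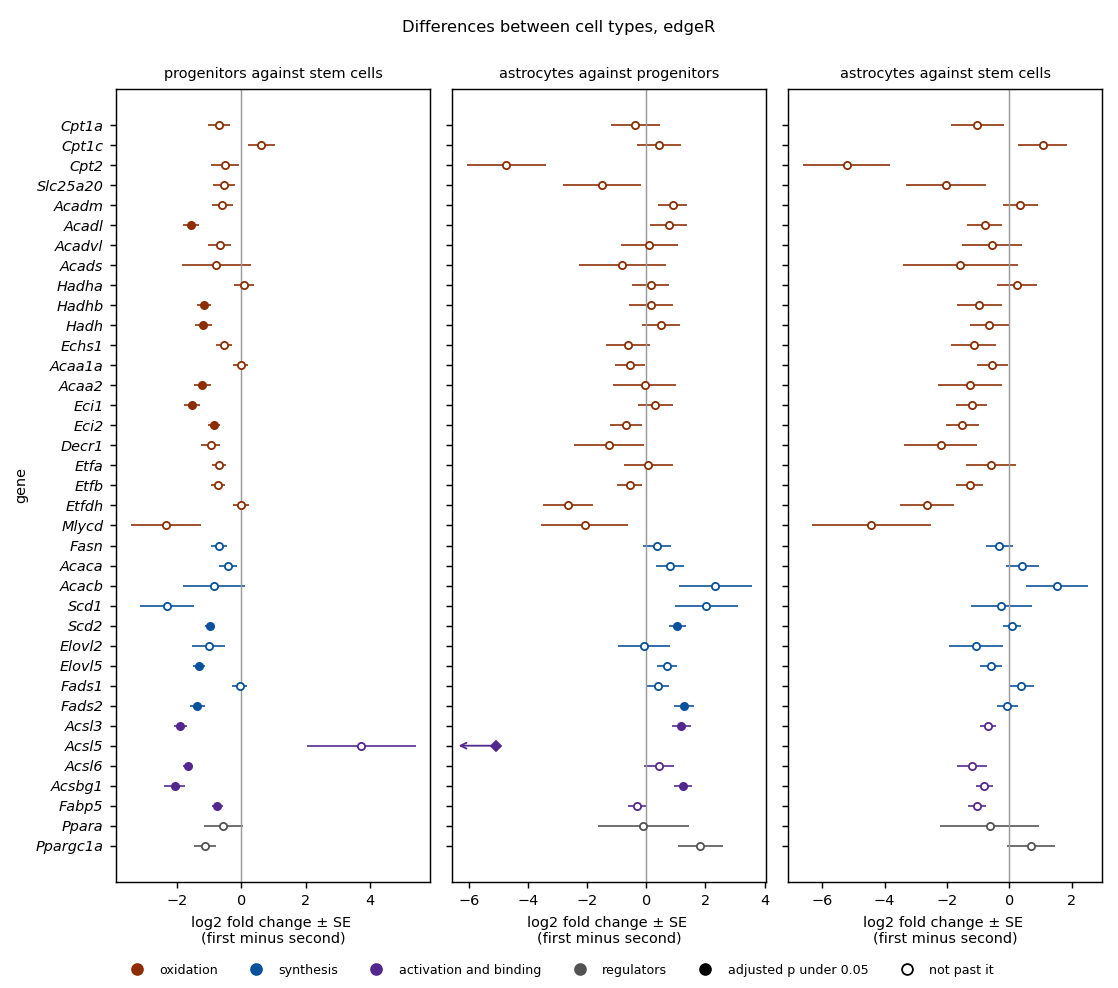
log2 fold change ± SE from edgeR for the 37 genes in the 3 comparisons, each the first cell type minus the second, with filled points for adjusted p under 0.05; the diamond with an arrow is the bound of -5.07 for Acsl5, whose astrocyte libraries hold at most 1 count. Nearly all points of progenitors against stem cells are left of 0, synthesis genes of astrocytes against progenitors are mostly right of 0, and no point of astrocytes against stem cells is filled.

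Astrocytes and progenitors differed in fewer members. 4 genes were higher in astrocytes (2.45% of all 14806 genes tested were) and 1 was lower (6.18%). Acsbg1 was at 1042, 1353, 892 and 1122 CPM in astrocytes a to d, above all progenitor libraries, with a log2 fold change of 1.25 ± 0.30 (adjusted p = 0.025). Acsl3 was at 593, 1303, 867 and 885 CPM, also above all progenitor libraries, with 1.19 ± 0.31 (adjusted p = 0.038). Fads2 was at 323, 243, 417 and 483 CPM (1.28 ± 0.34, adjusted p = 0.045) and Scd2 at 2123, 748, 1356 and 1345 CPM (1.05 ± 0.29, adjusted p = 0.049), and neither overlapped with progenitors. Over all genes tested, 5.84% were separated upwards in astrocytes and 15.2% downwards, against 4 and 3 of the members.

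These 4 calls were close to the threshold. With total counts as the scaling the median over all genes moved from 0.03 to -0.43, and 0 members were called higher (1.05% of all genes) and 2 lower (6.96%), with log2 fold changes of 0.57 for Scd2, 0.73 for Acsl3, 0.79 for Acsbg1 and 0.81 for Fads2. Without astrocyte b 3 members were called in all, without astrocyte c or progenitor a 2, and without progenitor b, c or d 1. Without astrocyte d 4 were called, with Acsbg1 higher and Acsl5, Cpt2 and Slc25a20 lower. In that fit the lower genes passed the count filter only through progenitor libraries, so they could be tested only as lower in astrocytes. Without astrocyte a, the library with the most Camk2a, 6 were called, 4 higher (Acsl3, Acsbg1, Fads2 and Ppargc1a) and 2 lower (Cpt2 and Acsl5). In that fit Scd2 was not called (adjusted p = 0.064). Ppargc1a was called there (log2 fold change 2.21 ± 0.53, adjusted p = 0.033) and not with all libraries (1.83 ± 0.77, adjusted p = 0.22), where it overlapped with progenitors. Astrocyte markers were higher in astrocytes as well, with 3 of 8 called and a median log2 fold change of 0.99, and 2 of 7 neuron and 1 of 4 oligodendrocyte markers tested were called higher. The 8 astrocyte markers include Slc1a3, the gene of GLAST, by which these cell types were sorted. In each of the lists of progenitor, oligodendrocyte precursor and stress markers, 3 were called lower in astrocytes. The part of these markers was not tested.

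Acsl5 was the gene called lower. Astrocytes a to d held 1, 0, 0 and 0 counts, and progenitors 275, 360, 183 and 171 counts. With 3 counts per library as the floor, or 0.598 CPM on average, progenitors were at least 33.7-fold higher, and the call held in the 7 alternative fits that tested it and without any 1 library (adjusted p at most 0.05 as rounded). Acsl5 passed the count filter only through its progenitor libraries. Where a filter was used it could be tested only as lower in astrocytes, so these fits are not separate support. Of its exonic bases 8.3% are shared with Zdhhc6 on the other strand, and the counting did not use strand.

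Synthesis and oxidation genes were also counted apart in this comparison, with no test between the roles. The median log2 fold change was -0.37 over the 21 oxidation genes and 0.81 over the 9 synthesis genes, where all genes tested had 0.03. Of the synthesis genes 8 had a positive value and 2 were called, whereas 9 oxidation genes had a positive value and 0 were called. The synthesis median was 0.35 with total counts as the scaling and 0.40 with only genes of at least 10 counts in every library. Summed synthesis genes were at 2838 ± 454 CPM in astrocytes and 1526 ± 92.6 CPM in progenitors, and summed oxidation genes at 1994 ± 722 and 2108 ± 126 CPM, where the libraries overlapped.

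Cpt2 and Etfdh, which act at the inner mitochondrial membrane, were the oxidation genes in which every astrocyte library lay below every library of both other cell types. Cpt2, which re-forms acyl-CoA inside mitochondria, had 0, 7, 2 and 19 counts in astrocytes a to d, against at least 321 counts in each progenitor library and at least 221 in each stem cell library. The edgeR test did not call it against progenitors (log2 fold change -4.73 ± 1.35, adjusted p = 0.06) or against stem cells (-5.22 ± 1.41, adjusted p = 0.16). Etfdh was at 3.83, 3.11, 19.4 and 23.9 CPM in astrocytes, under every progenitor and stem cell library, with -2.65 ± 0.85 (adjusted p = 0.095) and -2.64 ± 0.88 (adjusted p = 0.28). DESeq2 called both genes in both comparisons, where it called 9.99% of all genes lower against progenitors and 2.14% against stem cells. The fit over all 12 libraries called both against progenitors (5.32% of all genes) and Cpt2 against stem cells (1.25%). Against progenitors, Cpt2 was also called with total counts as the scaling (adjusted p = 0.046) and without astrocyte a or d (adjusted p = 0.032 in each), and Etfdh where each library had to hold 10 counts (log2 fold change -2.98, adjusted p = 0.046). Cpt2 passed the count filter only through progenitor or stem cell libraries, so it could be tested only as lower in astrocytes. The several fits that called Cpt2 are therefore not separate support.

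Between astrocytes and stem cells, the populations that share GLAST, 0 of the 36 members tested were called by edgeR, where 0.0468% of 12831 genes were (6 genes). At an unadjusted p under 0.05 there were 10 members, all lower in astrocytes (27.8% of those tested), against 9.55% of all genes in either direction. DESeq2 called 2 members, Cpt2 and Etfdh. Acsl5 was too low to be tested. The median log2 fold change of the members was -0.74 against 0.14 over all genes, and -1.14 for oxidation against -0.06 for synthesis.

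In 7 members every astrocyte library was under every stem cell library, and in 0 was it above (6.28% and 3.69% of all genes). Fabp5 was one, at 389, 206, 237 and 333 CPM in astrocytes (log2 fold change -1.03 ± 0.30, adjusted p = 0.21). Eci2 at 167, 33.2, 54.9 and 166 CPM (-1.50 ± 0.54, adjusted p = 0.33) and Eci1 at 32.2, 92.2, 173 and 153 CPM (-1.21 ± 0.51, adjusted p = 0.45) were others. Etfb at 73.7, 86, 70.3 and 159 CPM (-1.27 ± 0.43, adjusted p = 0.28) and Acsl6 at 117, 867, 355 and 702 CPM (-1.20 ± 0.48, adjusted p = 0.43) followed, and Cpt2 and Etfdh completed the 7. None of these passed the test. Scd2 and Fads2, by contrast, overlapped between astrocytes and stem cells, with log2 fold changes of 0.10 ± 0.29 and -0.06 ± 0.33.

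Each of these comparisons shares its libraries with another, so that the same stem cell or progenitor values enter both. Side by side, Acsl3, Acsbg1 and Elovl5 had the order progenitors, astrocytes, stem cells by mean level (402, 912 and 1457 CPM for Acsl3, 463, 1102 and 1913 CPM for Acsbg1, 200, 324 and 487 CPM for Elovl5). This order was not particular to them, and Acadl, Hadhb, Hadh, Eci1, Etfa and Acsl6, among others, had it as well. For Scd2 and Fads2, astrocytes and stem cells did not differ beyond their spread. Cpt2, Etfdh, Decr1 and Slc25a20 had their lowest means in astrocytes, as did other members, among them Cpt1a, Echs1, Acaa1a, Acaa2, Eci2, Etfb, Elovl2 and Fabp5. Fewer genes were detected in astrocyte libraries, and the part of this in their low means and wide spread was not tested.

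The spread between astrocyte libraries was wide. The median coefficient of variation of the 37 genes was 73% in astrocytes, 20.9% in progenitors and 30.4% in stem cells, and it was 71.4%, 22.5% and 28.7% over all genes of like level in the same libraries. Like level means a mean between the quartiles of the 37 member means. These were 57.3 to 227 CPM in astrocytes, 60.6 to 171 CPM in progenitors and 77.8 to 283 CPM in stem cells. Within astrocytes it was 80.6% for oxidation genes and 42.4% for synthesis genes. These roles were not matched for level, and Scd2, Fads2 and Elovl5 lay above the band of like level in astrocytes. In 18 of 37 genes the highest astrocyte library was over 10-fold above the lowest, against 2 genes in progenitors and 4 in stem cells.

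The astrocyte library with the lowest value differed between genes. Acadvl, the very-long-chain acyl-CoA dehydrogenase, had 7 counts in astrocyte a and 1319, 744 and 1634 in the others, although 42.9% of its exonic bases are shared with Dvl2. Acaa2 had 6 counts in astrocyte a, 580 in b, 71 in c and 1026 in d, and Hadhb, also a thiolase, had 1285, 90, 381 and 2004. Cpt1a was at 46, 199, 6.52 and 37.4 CPM, and Cpt1c at 230, 10.2, 240 and 179 CPM, so the library highest in the one was lowest in the other. Of the 21 oxidation genes 12 were highest in astrocyte d and 0 were lowest there. Fasn was at 73.7, 229, 289 and 317 CPM, and Ppara had 38, 0, 205 and 2 counts.

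**Figure D5:**
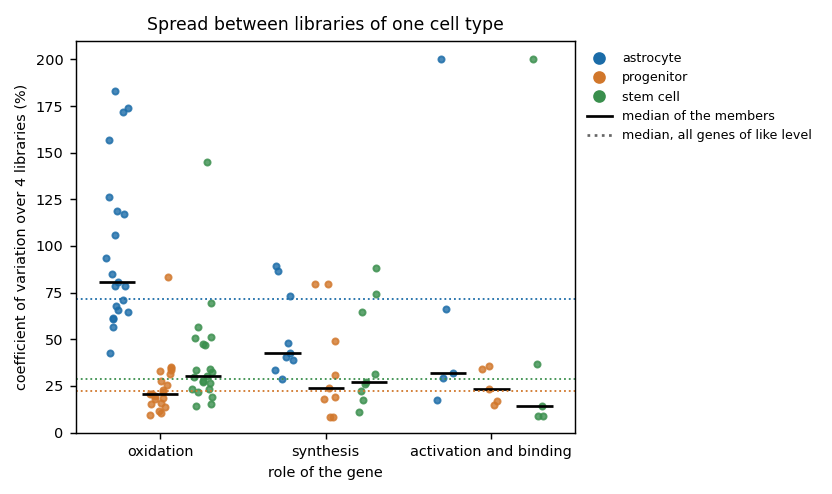
Coefficient of variation over 4 libraries (%) of each oxidation, synthesis and activation and binding gene by cell type; black bars are medians over the genes of a role, and dotted lines are the median of all genes of like level in each cell type. Oxidation genes of astrocytes have a median of 80.6%, synthesis genes of astrocytes 42.4%, and most genes of progenitors and stem cells lie under 50%.

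A wider list of 89 other genes of fatty acid metabolism was counted in the same fits. Between progenitors and stem cells 13 of the 78 tested were lower in progenitors and 1 was higher, with a median log2 fold change of -0.56, against 3.66% lower, 4.95% higher and a median of 0.04 over all genes. Lower genes included Slc27a1, a fatty acid transport protein (613 ± 62.1 against 1507 ± 303 CPM, log2 fold change -1.33 ± 0.17, adjusted p = 0.0018), and Hacd2, a dehydratase of chain elongation (105 ± 16.8 against 317 ± 51.8 CPM, -1.63 ± 0.20, adjusted p = 0.0017). Srebf1, the transcription factor known for lipogenic genes including desaturases, was at 120 ± 19.8 CPM in progenitors, 294 ± 29.6 CPM in stem cells and 393 ± 75.6 CPM in astrocytes. It was called in both comparisons with progenitors (adjusted p = 0.0028 and 0.015) and had an adjusted p of 0.74 between astrocytes and stem cells.

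Peroxisomal genes of the wider list followed the same direction in 3 called genes of 16 tested. These were Phyh, which starts the oxidation of branched chains (142 ± 22.2 against 322 ± 85.6 CPM, adjusted p = 0.0091), Crot, the carnitine octanoyltransferase (129 ± 33.6 against 303 ± 38.7 CPM, adjusted p = 0.0081), and the transporter Abcd2 (adjusted p = 0.044). Between astrocytes and progenitors 2 of 77 were higher, Srebf1 and Ivd, and 3 were lower, Slc27a3, Acad12 and Elovl7, so that the counts were near or under the shares over all genes (2.45% higher and 6.18% lower). The lower genes had 0 counts in every astrocyte library, and progenitors were at least 19.1-fold, 10.3-fold and 8.33-fold higher. They passed the count filter only through progenitor libraries, so they could be tested only as lower in astrocytes. Between astrocytes and stem cells edgeR called 0 of 71, with 10 at an unadjusted p under 0.05, all lower in astrocytes (9.55% of all genes in either direction). DESeq2 called 2 of the 71 lower, Acad12 and Acsl4, where it called 2.14% of all genes lower. In astrocytes Acad12 was at 0 and Acsl4 at a mean of 0.705 CPM, near the floor. Acad12 passed the count filter only through stem cell libraries. Fabp7, the brain fatty acid binding protein, was not called between progenitors and stem cells, at 290 ± 91.2 and 291 ± 42.8 CPM.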

How the data were processed

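The members, roles and lists were chosen with earlier results of these data known. The authors deposited raw counts per gene, whole numbers without normalization, made from SMARTer and Nextera XT libraries. The submitters' processing notes name CASAVA 1.8.2, HISAT2 2.0.6, Subread and featureCounts with build GRCm38.p4, and counting was unstranded on GENCODE genes, so antisense and overlapping genes share reads. Without molecular identifiers, intervals and floors (3 counts per library) cover counting error only. Symbols were matched for 50376 of 50600 genes, and positions, exonic lengths and overlaps came from GENCODE M21 on GRCm38. No replicates agreed within sampling noise (chi-square per degree of freedom at least 56.4).

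Each pair of cell types was tested on its 8 libraries with edgeR 4.0.16 in R 4.3.3 (TMM, quasi-likelihood test, a gene was kept at 10 or more counts in 4 or more libraries, Benjamini-Hochberg threshold 0.05 over all genes). Leave-one-out fits asked for at least 3 libraries. Alternatives were DESeq2 1.42.0, DESeq2-type size factors, other filters, 1 fit over 12 libraries, thinning and, chosen after seeing the data, total counts as the scaling. Partner genes were compared by two-sided exact permutation tests. Copies were transcripts with at least 95% identity over at least 200 bases. Both fitting tools were run on simulated counts. A limit on recovery was set only for edgeR and at a lower spread than in these libraries. This check therefore does not speak for the tests at the spread seen here. Members called in any comparison, those separated at 10 or more counts throughout, and Cpt1a, Fasn and Ppara are given library by library; other pathway genes are named only where called, except Fabp7, chosen after its values were seen. Promoter bases are from RefSeq.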

Additional observations from a re-analysis of the deposited data

Results flagged for a closer look

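Each gene was checked in each cell type for a library far from the other 3 (gap to the nearest library over the whole range above Dixon's 95% critical value for 4 libraries). For normally distributed values chance flags about 1 in 20 groups, and 11 of 111 were flagged. The rule was applied to CPM without a log, some of them near 0, so that rate need not hold here. In astrocytes, astrocyte d stood highest for Slc25a20 at 53.9 CPM (next 3.83), Acads at 28.4 CPM (next 1.58), Decr1 at 63.9 CPM (next 7.11) and Mlycd at 3.47 CPM (next 0.426), and astrocyte a for Acsl5 at 0.213 CPM, which is 1 count where the others have 0. In progenitors, progenitor b stood highest for Acads at 17.4 CPM (next 12.4) and for Hadha at 137 CPM (next 79.1). In stem cells, the high libraries were stem cell 1 for Echs1 at 334 CPM (next 193), stem cell 2 for Mlycd at 66.2 CPM (next 9.26), stem cell 3 for Ppara at 40.9 CPM (next 14.1) and stem cell 4 for Acsl5 at 5.94 CPM (0 in the others). All 11 were high libraries.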

How the results depend on the processing

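No paired analysis was possible because the astrocyte and progenitor columns carry no replicate numbers, so no fit with a replicate block was made. Between progenitors and stem cells the count of called members was 13, 9 to 18 under 7 alternatives and 4 in 1 fit over all 12 libraries, and leaving out a library gave 10 to 15. Between astrocytes and progenitors it was 5, with 2 under total counts as the scaling, 1 without a filter on low counts, 1 when each library had to hold 10 counts, and 1 to 6 when a library was left out. Between astrocytes and stem cells it was 0, with 2 by DESeq2, 2 by DESeq2 without independent filtering and 1 in the fit over all 12 libraries. The median of the synthesis members moved to 0.35 (total counts) and 0.40 (at least 10 counts in each library) for astrocytes against progenitors, and moved to -0.66 (total counts) for progenitors against stem cells. Some uncalled genes changed sign. Against progenitors, astrocytes had 0.01 for Cpt1a without astrocyte c (-1.66 to 0.01 over libraries left out), -0.10 for Fasn with total counts, and 0.07, 0.31 and 0.30 for Ppara without astrocyte a, b and d (-2.29 to 0.31). Without stem cell 3, Ppara had 0.04 for astrocytes (-2.78 to 0.04) and 0.13 for progenitors (-0.76 to 0.13) against stem cells. Hadha for progenitors against stem cells was -0.02 after thinning, -0.17 without progenitor b and -0.10 without stem cell 3 (-0.17 to 0.24). The cause of these changes was not tested. Depth limits genes such as Mlycd and Acsl5, where a count of 0 allows 0.206 to 0.639 CPM.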
